A study of Mus musculus with 6 samples.

Results

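The genes described here encode 10 surface or secreted proteins through which a tumour cell can restrain T cells, natural killer (NK) cells or phagocytes. They were picked by name from the 24421 rows of the deposited 4T1 table, and all 10 were found: Cd274, Pdcd1lg2, Lgals9, Pvr, Pvrl2 (the older symbol of Nectin2), Cd47, Cd276, Vtcn1, Cd80 and Tnfrsf14. 4T1 is a mouse mammary adenocarcinoma line, labelled epithelial and grown in culture. Its cells carried a control hairpin (shCTL, genotype CTL) or a hairpin against the heat shock transcription factor HSF1 (shHSF1, genotype HSF1 shRNA), with 3 libraries in each group. Both groups share the cell line and the growth medium and differ, by their labels, in the hairpin. What the hairpin sequences are, and whether the cells were single clones or pools, is not stated in the labels. The study's title links HSF1 to the exclusion of CD8+ T cells from breast tumours, and the comparison below asks how the tumour cells' own ligand transcripts differed between the hairpins.

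Checkpoint ligands act by binding receptors on immune cells. PD-L1 (Cd274) and PD-L2 (Pdcd1lg2) bind PD-1 on T cells, and interferon-gamma is the classic inducer of PD-L1. The poliovirus receptor (Pvr) and nectin-2 (Pvrl2) bind both the activating receptor DNAM-1 (Cd226) and the inhibitory receptor TIGIT, so their effect depends on which receptor is present. CD47 binds SIRP-alpha on phagocytes and restrains engulfment, and galectin-9 (Lgals9) is a sugar-binding lectin that binds TIM-3 (Havcr2) among other proteins.

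Sequencing depth ran from 23750025 to 36903175 reads assigned to genes per library. On the first principal component, with 53.8% of the variance, the replicate 1 libraries of both groups were separate from the rest (−47.0 and −38.5, against 13.4 to 30.7), so the 7 ligands that could be tested are also given without them, as 2 against 2 libraries, as are some of the other genes. The second component, with 26% of the variance, separated the hairpins (−23.8 to −16.3 in shCTL, 15.3 to 31 in shHSF1). Hsf1 itself measured 18.4, 20.3 and 20.1 RPKM (reads scaled to gene length and library size) in the 3 controls, in order of replicate number, against 23.2, 13.8 and 15.4 RPKM with its own hairpin. In the library labelled shHSF1 replicate 1 the target was therefore above, not below, the controls, and its log2 difference of −0.20 (SE 0.21) did not pass over 6 libraries (limma adjusted p = 0.810); without both replicate 1 libraries it was −0.46 (SE 0.099, limma adjusted p = 0.0433). Every direction below rests on the labels as given. Of markers of other cells, the T and NK cell genes Cd3d, Cd8a and Ncr1 had no read in any library, and the list of leukocyte genes summed to 0.397 to 5.64 RPKM in shCTL and 1.11 to 1.2 in shHSF1. S100a8 made up 5.59 RPKM of the highest sum, in shCTL replicate 1. The macrophage and granulocyte marker Lyz2 had 0 reads in each shCTL library and 1, 31 and 31 in shHSF1. Of 10 stromal and endothelial markers, 3 (Col3a1, Lum and Kdr) were at 0 in all libraries and Pdgfra stood at 9.93 to 37.3 RPKM. The fibroblast collagen gene Col1a1 had 8, 7 and 5 reads in shCTL and 30, 61 and 50 in shHSF1, without overlap, Col1a2 had 0, 0 and 3 against 2, 9 and 14, and Pdgfrb 13, 19 and 3 against 13, 148 and 52. Dcn went the other way, with 5, 2 and 2 reads against 1, 2 and 0, and Pecam1 had 11, 6 and 9 against 3, 10 and 12. The part of these low counts in the ligand values was not tested. The epithelial keratins Krt8 and Krt18 were abundant, at 314 to 760 and 738 to 1611 RPKM, and Krt5 was at 0.

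The ligand genes Lgals9, Pvrl2 and Cd274 had no overlap between the groups. The 250 bases upstream of their start sites (RefSeq, build GRCm38.p6) are shown because these are the genes on which the comparison turns. Capitals mark a match to the interferon-stimulated response element pattern described below.
Lgals9, chr11:78984925-78985174, minus strand: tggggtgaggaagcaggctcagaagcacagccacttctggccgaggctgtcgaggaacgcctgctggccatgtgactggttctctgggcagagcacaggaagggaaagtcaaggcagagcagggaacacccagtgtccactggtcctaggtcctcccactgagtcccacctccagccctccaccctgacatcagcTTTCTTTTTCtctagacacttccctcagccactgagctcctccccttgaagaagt
Pvrl2, chr7:19749574-19749823, minus strand: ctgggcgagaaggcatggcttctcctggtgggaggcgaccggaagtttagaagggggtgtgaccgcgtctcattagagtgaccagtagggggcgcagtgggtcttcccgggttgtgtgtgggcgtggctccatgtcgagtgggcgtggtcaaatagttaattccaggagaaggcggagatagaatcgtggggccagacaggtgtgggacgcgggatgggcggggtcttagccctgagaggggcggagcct
Cd274, chr19:29367188-29367437, plus strand: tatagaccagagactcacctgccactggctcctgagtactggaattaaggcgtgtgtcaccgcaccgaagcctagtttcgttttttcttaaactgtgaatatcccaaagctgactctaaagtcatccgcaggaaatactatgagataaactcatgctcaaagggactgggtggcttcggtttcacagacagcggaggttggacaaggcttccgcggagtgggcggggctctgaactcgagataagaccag

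Windows of 300 bases (250 before and 50 after the start site) were found for 9 of the 10 genes, not for Pvr, and were searched on both strands for 4 patterns tied to heat shock or interferon and for the E-box CACGTG. The heat shock element core GAANNTTC was absent from the windows of Lgals9, Pvrl2 and Cd274; it occurred in those of Tnfrsf14 and Vtcn1, and in 7.86% of all 32851 windows. Its extended form, with any 2 bases and then 1 more GAA or TTC unit on either side of the core, was in none of the 9 genes' windows and in 0.603% of all. The interferon-stimulated response element (a pair of GAAA stretches with any 2 bases between) matched at 2 places in Lgals9, beginning 55 bases upstream and 15 bases downstream of the start, and once in Tnfrsf14, against 3.44% of all windows with a match. The gamma-activated site TTCNNNGAA (8.30% of all windows) and the E-box (7.15%) were in none of the 9. The windows differed widely in composition: Cd47 and Cd276 had 74.0% and 78.3% G or C with 35 and 39 CpG pairs, while Lgals9, Pvrl2 and Cd274 had 58.0%, 62.7% and 52.7% with 4, 20 and 15. The median over all windows was 52.7% G or C. The window of Cd276 lies upstream of the gene model in the deposited table, whose first exon ends at base 58540940 of chromosome 9. A pattern match is a description of letters and not of binding.

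The levels of the 10 genes ran from abundant to undetected. Expressed per length of gene, Cd47 led in all 6 libraries, with 126, 88.4 and 91.1 RPKM in shCTL and 144, 113 and 88.4 RPKM in shHSF1. It made up 51.8% to 62.3% of the summed RPKM of the 10 genes in shCTL and 40.4% to 56.6% in shHSF1. Below it in shCTL came Cd276, Lgals9 and Pvr, whose neighbouring ranges overlapped (22.9 to 34.0, 19.1 to 24.0 and 16.5 to 20.6 RPKM), then Pvrl2 (7.51 to 8.07) and Tnfrsf14 (2.45 to 4.05), each clear of its neighbours. Cd274 (0.451 to 0.971 RPKM) and Vtcn1 (0.0281 to 0.527 RPKM) overlapped each other. In shHSF1 the order differed in the middle: Lgals9 (37.8 to 56.1 RPKM) had the second highest mean, overlapping Cd276 (30.0 to 42.6), and Pvrl2 (13.1 to 22.2) overlapped Pvr (11.7 to 23). In these bulk libraries a larger share of expressing cells and more transcript per cell cannot be told apart.

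**Figure D1:**
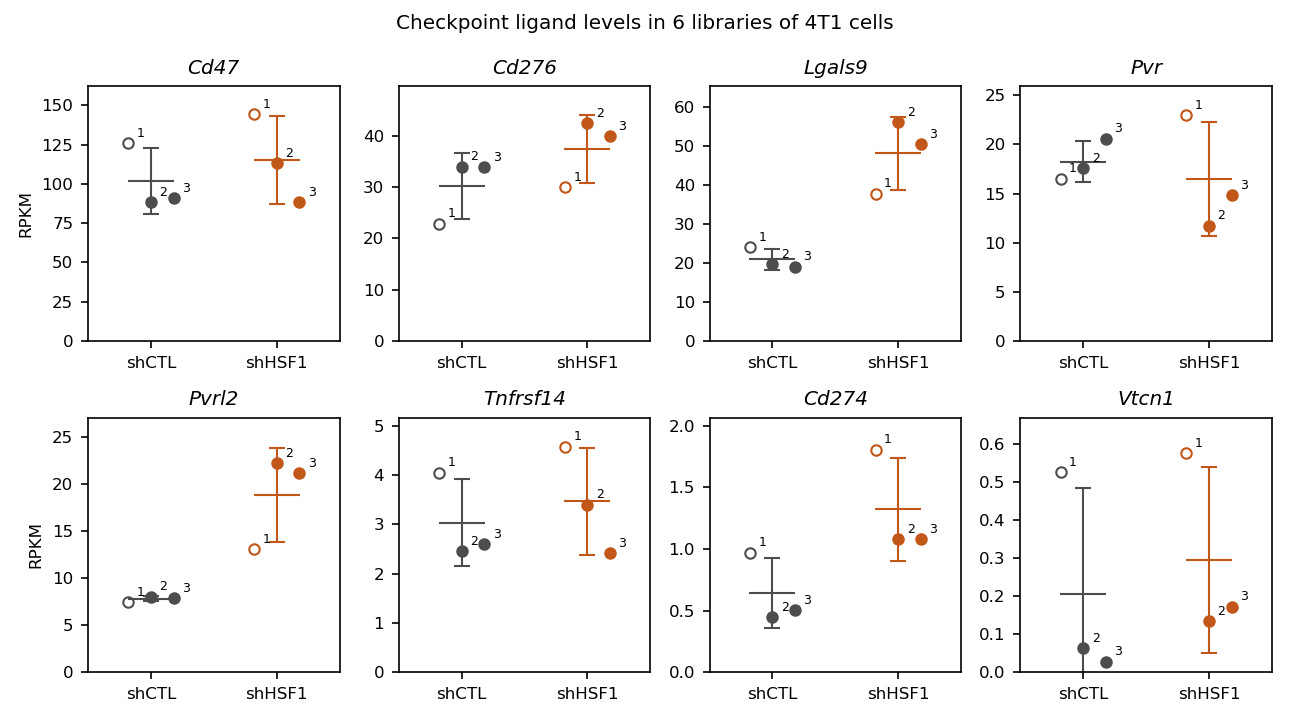
RPKM (vertical axes, each from 0) of the 8 ligand genes with more than 2 reads in all, in shCTL (grey) and shHSF1 (orange). Points are single libraries with their replicate numbers, open for replicate 1, and bars give the mean ± SD of 3 libraries (the lower bar of Vtcn1 in shCTL is cut at 0). Lgals9, Pvrl2 and Cd274 are the genes whose groups do not overlap, and the open points lie apart in several panels.

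Galectin-9 was the ligand with the smallest p. Lgals9 (chromosome 11, 78962979 to 78984924, minus strand, mm10) measured 24.0, 19.7 and 19.1 RPKM in shCTL, in order of replicate number here and below, against 37.8, 56.1 and 50.6 RPKM with the HSF1 hairpin. All 3 shHSF1 libraries lay above all 3 controls, with replicate 1 the lowest of the higher group and the highest of the lower one. These levels rest on 741 to 939 reads in shCTL and 1469 to 3282 reads in shHSF1. Means were 20.9 ± 2.72 and 48.2 ± 9.36 RPKM (SD, n = 3 each), a ratio of 2.30, and the same-numbered ratios were 1.57, 2.85 and 2.65. On the log2(RPKM + 0.5) scale it came to 1.17 (SE 0.19, limma adjusted p = 0.112 over all genes tested), so it did not pass at 0.05; a two-sided exact permutation test gave p = 0.1, below which 3 against 3 cannot go. Leaving out both replicate 1 libraries gave 1.44 (SE 0.095, limma adjusted p = 0.00416), and there Lgals9 passed. That fit sets 2 against 2 libraries, and 11.1% of all genes tested passed in it.

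Nectin-2 transcripts had a log2 difference close to that of galectin-9. Pvrl2 (chromosome 7, 19716644 to 19749573, minus strand) stood at 7.51, 8.07 and 7.93 RPKM in shCTL, against 13.1, 22.2 and 21.2 RPKM in shHSF1. The controls differed from each other by less than 1 RPKM, and every shHSF1 library lay above them, replicate 1 by the least. Between 637 and 742 reads in shCTL and 1103 and 2824 reads in shHSF1 stand behind these values. The means were 7.84 ± 0.292 and 18.8 ± 5.00 RPKM (SD, n = 3 each), with same-numbered ratios of 1.74, 2.75 and 2.67. Its log2 difference of 1.18 (SE 0.22, limma adjusted p = 0.161) did not pass. Without both replicate 1 libraries it was 1.38 (SE 0.093, limma adjusted p = 0.00436) and passed, as did 11.1% of all genes tested. A GENCODE M21 antisense gene, Gm20512, covers 3.92% of the exon bases of Pvrl2, and whether reads were counted by strand is not given.

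Pvr, the other ligand of TIGIT and DNAM-1, overlapped between the groups. Pvr (chromosome 7, 19903578 to 19921143, minus strand) lies 154004 bases from Pvrl2 on the same strand and stood at 16.5, 17.6 and 20.6 RPKM in shCTL, against 23, 11.7 and 14.8 RPKM in shHSF1. The library labelled shHSF1 replicate 1 had the highest value of all 6, and shHSF1 replicates 2 and 3 had the lowest. The means were 18.2 ± 2.11 and 16.5 ± 5.80 RPKM (SD, n = 3 each; log2 difference −0.19, SE 0.25, limma adjusted p = 0.863). Leaving out both replicate 1 libraries gave −0.51 (SE 0.14, limma adjusted p = 0.0737), which did not pass either. The balance of both ligands within a library, chosen after the values were seen, can be read as the ratio of Pvrl2 to Pvr. That ratio was 0.455, 0.458 and 0.386 in shCTL and 0.570, 1.89 and 1.43 in shHSF1, so Pvr exceeded Pvrl2 in 4 libraries and Pvrl2 exceeded Pvr in shHSF1 replicates 2 and 3. A two-sided exact permutation test of the log2 ratio gave p = 0.1, again the smallest possible. Because the ratio was picked from these same values, that p cannot serve as evidence of a shift in balance.

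PD-L1 transcripts were scarce in both groups. Cd274 (chromosome 19, 29367438 to 29388094, plus strand) stood at 0.971, 0.451 and 0.506 RPKM in shCTL, against 1.81, 1.08 and 1.08 RPKM in shHSF1. The groups did not overlap, although shCTL replicate 1 (0.971) came close to shHSF1 replicates 2 and 3, and replicate 1 was the highest library of each group. The counts were 87, 39 and 50 reads against 161, 145 and 113. The same-numbered ratios of 1.86, 2.39 and 2.14 were closer to one another than those of Lgals9 or Pvrl2. Its log2 difference of 0.68 (SE 0.28, limma adjusted p = 0.428) did not pass, nor did it without both replicate 1 libraries (0.69, SE 0.17, limma adjusted p = 0.0561). At such low levels the added 0.5 RPKM shrinks the value: with 0.1 in its place the log2 difference was 0.97 (limma adjusted p = 0.430). GENCODE M21 places an antisense gene, AC119228.1, over 14.0% of the exon bases of Cd274, so some of its reads could belong to that gene.

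The second PD-1 ligand, Pdcd1lg2, lies 22824 bases downstream of Cd274 on the same strand. It had 0 reads in 5 libraries and 2 reads in shHSF1 replicate 2, which is below the floor of 3 reads (0.0238 to 0.0370 RPKM for this gene). Cd80, which binds CD28 and CTLA-4 and is mainly a ligand of antigen-presenting cells, had 0 reads in all 6 libraries, which allows a level of up to 0.0743 RPKM in the shallowest library. Vtcn1 (B7-H4), an inhibitory member of the B7 family, had 34, 4 and 2 reads in shCTL and 37, 13 and 13 in shHSF1. Its replicate 1 libraries were at 0.527 and 0.576 RPKM and the other 4 at 0.0281 to 0.173 RPKM, so the level followed the replicate number more closely than the hairpin. These 3 genes did not pass the filter of 0.5 RPKM in at least 3 libraries and were not tested.

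The remaining ligands overlapped between the groups. Cd276 (B7-H3), a B7 family member widely expressed in carcinoma, stood at 22.9, 34.0 and 34.0 RPKM in shCTL, against 30.0, 42.6 and 40.0 RPKM in shHSF1. Each shHSF1 library was above its same-numbered control, by ratios of 1.31, 1.25 and 1.18, but the library labelled shHSF1 replicate 1 lay below shCTL replicates 2 and 3. Its log2 difference of 0.31 (SE 0.22) had a limma adjusted p of 0.659, and of 0.0926 without both replicate 1 libraries (difference 0.28, SE 0.087). For Cd47 the means were 102 ± 21.1 and 115 ± 28.1 RPKM (SD, n = 3 each; log2 difference 0.17, SE 0.23, limma adjusted p = 0.863; 0.16, SE 0.13 and adjusted p = 0.451 without both replicate 1 libraries), and the same-numbered ratios were 1.15, 1.28 and 0.970. Tnfrsf14 (HVEM), which engages the inhibitory receptor BTLA, stood at 4.05, 2.45 and 2.60 RPKM in shCTL, against 4.57, 3.40 and 2.42 in shHSF1 (log2 difference 0.16, SE 0.28, limma adjusted p = 0.897; 0.16, SE 0.17 and adjusted p = 0.564 without both replicate 1 libraries). For Cd47 and Tnfrsf14 alike, replicate 1 was the highest library of its group, and shHSF1 replicate 3 was the lowest of the shHSF1 libraries.

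Counted over the 10 genes, 7 passed the filter and 3 did not. Of the 7, none passed limma at an adjusted p of 0.05 over the 11386 genes tested, where 3 genes (0.0263%) passed in all, and 3 of the 7 had an unadjusted p under 0.05, against 11.4% of all genes tested. In 3 of the 7 the shHSF1 libraries all lay above the controls and in none below. Over all genes tested these shares were 12.9% and 7.16%. The ligands and the lists below were chosen with earlier results of these data known, so the shares set beside each other are descriptions only. The median log2 difference of the 7 was 0.31, beside 0.052 over all genes tested. With the replicate number as a block 0 of the 7 passed, against 0.176% of all genes, and 4 had an unadjusted p under 0.05, against 23.8% of all genes. With voom on whole reads 0 of the 7 passed, where 0.0878% of all genes passed. In that fit 3 of the 7 had an unadjusted p under 0.05, as did 1324 of the 11386 genes. Without both replicate 1 libraries 2 of the 7 passed, both higher, where 11.1% of all genes passed and 7.04% passed as higher; 5 had an unadjusted p under 0.05, against 32.3% of all genes.

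**Figure D2:**
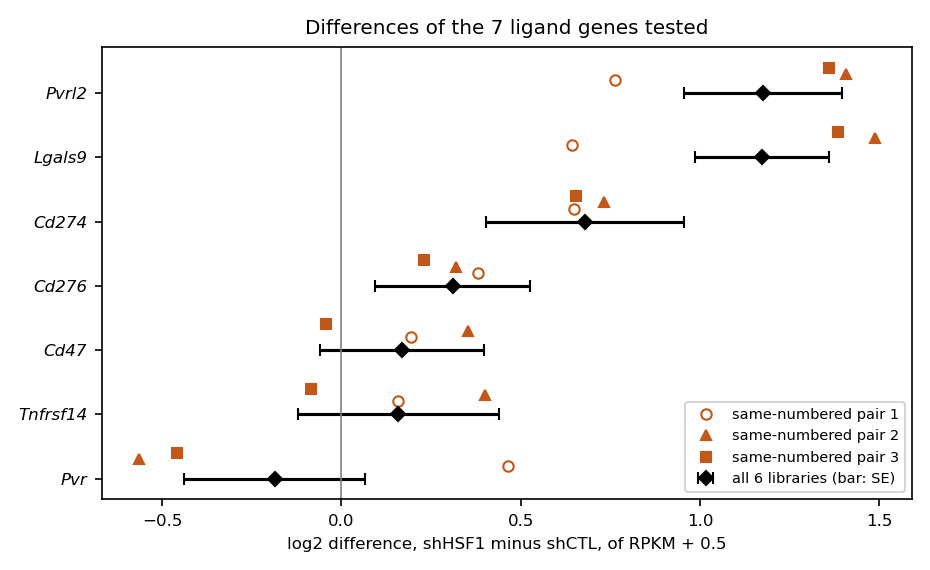
Log2 difference of RPKM + 0.5, shHSF1 minus shCTL (horizontal axis), for the 7 ligand genes tested. Black diamonds give the limma estimate over 6 libraries with its SE, and orange symbols give each same-numbered pair (open circle, pair 1). Lgals9 and Pvrl2 lie at 1.17 and 1.18 with pair 1 lowest, and Pvr has pair 1 at 0.46 with pairs 2 and 3 at −0.57 and −0.46.

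The receptors of these ligands were read in the same cells. Of 15 checkpoint receptor genes, 14 were in the table and 3 passed the filter: Tigit, Sirpa and Havcr2. Tigit, an inhibitory receptor known from T and NK cells, stood at 10.7, 47.7 and 53.9 RPKM in shCTL, against 69.9, 53.7 and 63.1 RPKM in shHSF1, on 253 to 1910 reads. It exceeded Pvr in 5 of 6 libraries, with shCTL replicate 1 far below the rest. The log2 difference of 1.02 (SE 0.59, limma adjusted p = 0.582) did not pass and rested on that library: without shCTL replicate 1 it was 0.28 (SE 0.15, limma adjusted p = 0.440). No other GENCODE M21 gene overlaps the exons of Tigit, but the table gives 1 total per gene, so where along the gene its reads lie was not examined. Of the T and NK cell markers, Cd3d, Cd8a and Ncr1 had no read, Cd3e had 1 read in each replicate 1 library, and Cd4 and Klrc1 had 1 read in a single library. The general leukocyte gene Ptprc had 1 to 17 reads in every library. Cd226 (DNAM-1) and Cd160 were at 0 in every library, Cd96 at 0.0562 RPKM or less, and Pdcd1 (PD-1) at 0 in 5 libraries. Other receptor genes under the filter did have reads. Cd28 had 19, 14 and 12 reads in shCTL and 28, 32 and 18 in shHSF1. Lag3 had 16, 12 and 8 reads in shCTL and 10, 10 and 2 in shHSF1, and Cd244 had 5 in shHSF1 replicate 1. Havcr2, the TIM-3 receptor that galectin-9 binds, was low at 0.164, 0.402 and 0.514 RPKM in shCTL and 0.435, 0.875 and 1.08 RPKM in shHSF1 (log2 difference 0.58, SE 0.30, limma adjusted p = 0.533). Sirpa, the receptor of CD47, stood at 1.88 to 3.04 RPKM in shCTL, against 0.153, 3.11 and 3.23 RPKM in shHSF1, so that replicate 1 was low in shHSF1 only (log2 difference −0.50, SE 0.68, limma adjusted p = 0.863). That negative value rested on the library labelled shHSF1 replicate 1: without both replicate 1 libraries it was 0.18 (SE 0.14, limma adjusted p = 0.422).

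**Figure D3:**
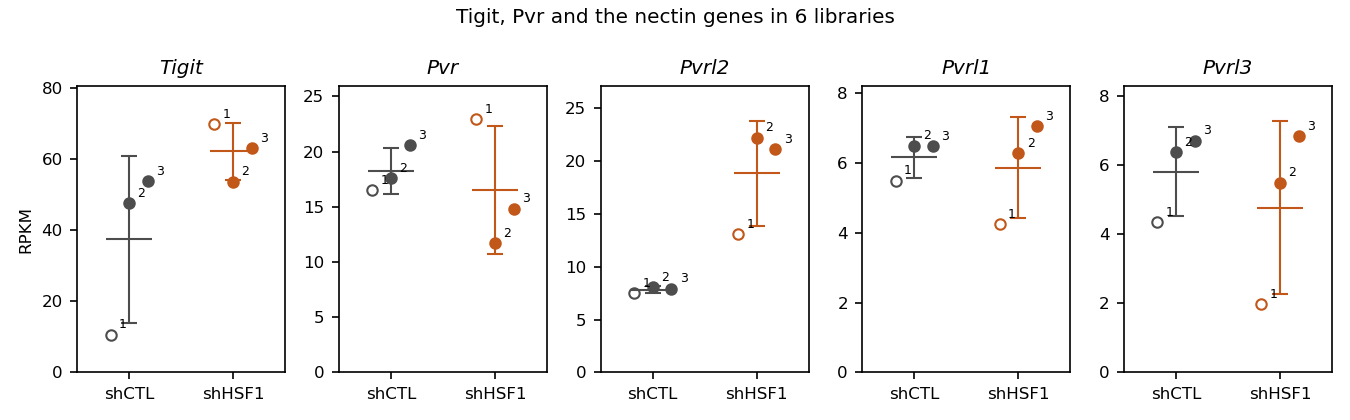
RPKM (vertical axes, each from 0) of the receptor gene Tigit, its ligand genes Pvr and Pvrl2, and the related nectin genes Pvrl1 and Pvrl3, in shCTL (grey) and shHSF1 (orange). Points are libraries with their replicate numbers, open for replicate 1, and bars are the mean ± SD of 3 libraries. Tigit is at 10.7 RPKM in shCTL replicate 1 and at 47.7 to 69.9 RPKM elsewhere, and Pvrl2 is the gene of these 5 whose groups do not overlap.

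The related nectins overlapped between the groups. Pvrl1 stood at 5.49 to 6.49 RPKM in shCTL and 4.24 to 7.05 RPKM in shHSF1 (log2 difference −0.090, SE 0.22), and Pvrl3, a nectin that also binds Pvr, at 4.35 to 6.72 and 1.99 to 6.84 RPKM (−0.38, SE 0.42). Both belong to a list of 24 other B7, butyrophilin and inhibitory ligand or ectoenzyme genes, 11 of which were tested. None of the 11 passed over 6 libraries (limma, 3 with an unadjusted p under 0.05, against 11.4% of all genes tested). Of the 11, 4 had differences above 0 and 7 below, where 57.1% of all genes tested were above 0, and their median log2 difference was −0.090.

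The 3 genes of that list with the smallest p had differences in both directions, and none passed over 6 libraries. They were the 3 of the 11 that passed without both replicate 1 libraries, where 11.1% of all genes passed. Nt5e (CD73), an ectoenzyme that makes immunosuppressive adenosine, stood at 170, 126 and 125 RPKM in shCTL, against 89.4, 89.6 and 74.2 RPKM in shHSF1, without overlap. The log2 difference came to −0.72 (SE 0.17, limma adjusted p = 0.204), and to −0.62 (SE 0.11, limma adjusted p = 0.0308) without both replicate 1 libraries. Cadm1, an adhesion molecule that binds CRTAM on activated NK and CD8 T cells, was at 0.722, 1.07 and 0.638 RPKM against 0.242, 0.105 and 0.199 (−0.93, SE 0.23, limma adjusted p = 0.228; −1.04 and adjusted p = 0.0484 without both replicate 1 libraries). Icosl, the ligand of the costimulatory receptor ICOS, was at 0.251, 0.598 and 0.482 RPKM against 0.788, 1.52 and 1.54 (0.90, SE 0.28, limma adjusted p = 0.306; 0.97 and adjusted p = 0.0289 without both replicate 1 libraries). VISTA (listed under its older symbol 4632428N05Rik) was highest in both replicate 1 libraries, at 3.74 and 3.40 RPKM, against 0.501 to 1.21 in the other 4. Siglec15, an inhibitory lectin named after its values were seen, measured 15.2, 4.01 and 2.76 RPKM in shCTL, against 4.96, 2.24 and 0.916 RPKM in shHSF1 (log2 difference −1.15, SE 0.71, limma adjusted p = 0.610). Cd86 and Cd200 had no read in any library.

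Among 12 costimulatory and death genes of the tumour necrosis factor family, 2 were tested. Cd40, the receptor through which T cell help reaches antigen-presenting cells, stood at 1.07, 0.637 and 1.3 RPKM in shCTL, against 2.34, 5.80 and 4.19 RPKM in shHSF1, with no overlap. It did not pass over 6 libraries (log2 difference 1.57, SE 0.34, limma adjusted p = 0.184). Without both replicate 1 libraries it passed (1.93, SE 0.26, limma adjusted p = 0.0183), as did 11.1% of all genes tested. Tnfsf9, the ligand of 4-1BB, stood at 5.25 to 8.26 RPKM in shCTL and 5.48 to 8.11 in shHSF1 (−0.034, SE 0.23). Of 14 NK cell ligand genes 13 were in the table and 4 were tested, and none passed in limma (0 with an unadjusted p under 0.05). Without both replicate 1 libraries none passed either, with 1 (H2-T23) at an unadjusted p under 0.05. Ulbp1 and H60b, ligands of the activating receptor NKG2D, stood at 27.4 to 46.2 and 20.5 to 38.6 RPKM in shCTL, against 19.1 to 46.8 and 23.9 to 28.5 RPKM in shHSF1. H2-T23, whose product Qa-1 engages the NK receptor NKG2A, was at 67.8, 14.2 and 15.5 RPKM against 67.2, 32.4 and 20.7, with replicate 1 highest in both groups.

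The 26 regulators of PD-L1 and CD47 were all tested. None passed over 6 libraries (limma, 5 with an unadjusted p under 0.05, against 11.4% of all genes tested). Of the differences 17 were above 0 and 9 below, where 57.1% of all genes tested were above 0, and the median log2 difference was 0.25. In 7 of the 26 the shHSF1 libraries all lay above the controls and in none below, beside 12.9% and 7.16% of all genes tested. This list too was chosen with earlier results known, so these shares are a description. Irf1, the interferon-induced factor that binds the PD-L1 gene, stood at 20.3, 16.7 and 23.7 RPKM in shCTL, against 31.7, 38.3 and 35.8 RPKM in shHSF1 (log2 difference 0.80, SE 0.17, limma adjusted p = 0.178). Rel, a subunit of NF-kB, was at 1.34, 1.58 and 2.25 RPKM against 3.52, 3.08 and 2.98 (0.75, SE 0.21, limma adjusted p = 0.263), and Spop, an adaptor of the ubiquitin ligase that turns over PD-L1, at 48.7, 41.2 and 48.0 against 58.4, 59.2 and 61.4 (0.38, SE 0.12, limma adjusted p = 0.314). Without both replicate 1 libraries 3 of the 26 passed, all higher, a share near the 11.1% of all genes that passed there (7.04% as higher): Irf1 (0.88, SE 0.17, limma adjusted p = 0.0333), the interferon-gamma receptor chain Ifngr1 (0.59, SE 0.13, limma adjusted p = 0.0449) and Hip1r, which directs PD-L1 to lysosomes (0.82, SE 0.12, limma adjusted p = 0.0196). Cmtm6, which stabilises PD-L1 at the membrane, and Qpctl, the enzyme that modifies CD47 for SIRP-alpha binding, had differences of 0.19 (SE 0.14) and −0.23 (SE 0.18).

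**Figure D4:**
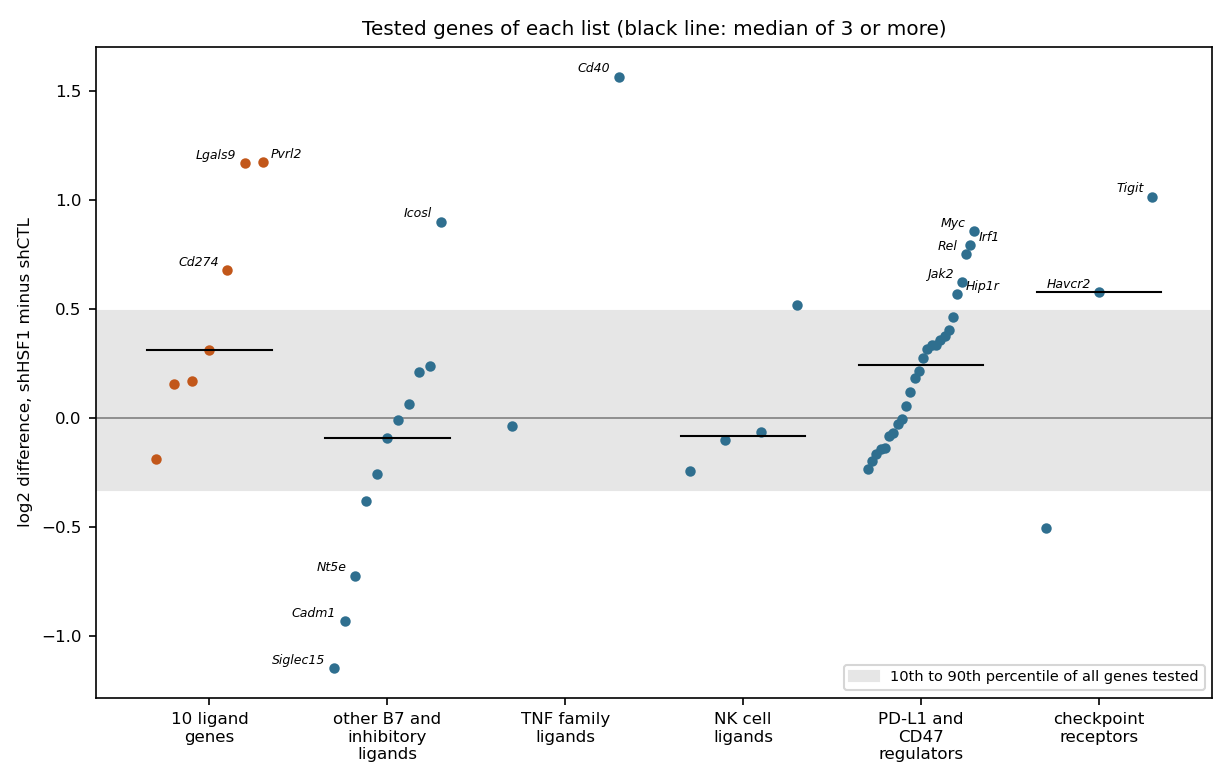
Log2 difference, shHSF1 minus shCTL (vertical axis), of every tested gene in the 10 ligand genes and 5 related lists, each gene 1 point, with the list's median as a black line where at least 3 genes were tested. The grey band spans the 10th to 90th percentile of all 11386 genes tested, −0.33 to 0.49. Lgals9, Pvrl2 and Cd274 lie above the band, as do Cd40, Icosl, Tigit, Havcr2, H2-T23 and the regulators Myc, Irf1, Rel, Jak2 and Hip1r. Nt5e, Cadm1, Siglec15, Sirpa and Pvrl3 lie below it. None of these passed over 6 libraries.

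Among the 8 epithelial markers, 7 were tested and 4 had no overlap between the groups, Epcam and Esrp1 higher and Krt8 and Krt18 lower in shHSF1. Of all genes tested, 12.9% were higher and 7.16% lower without overlap. None of the 7 passed without a block (limma, 3 with an unadjusted p under 0.05, against 11.4% of all genes tested). Epcam passed with the replicate block, where 0.176% of all genes passed. Without both replicate 1 libraries 4 of the 7 passed, where 11.1% of all genes passed. Epcam and Esrp1 were higher there, Krt8 and Cdh1 lower. By replicate number Cdh1 had 53.24, 70.58 and 57.03 RPKM in controls and 85.91, 32.35 and 31.68 RPKM with the HSF1 hairpin. Cdh1 was thus higher in replicate 1 and lower in replicates 2 and 3. In log2 units it differed by −0.42 over 6 libraries (0.771 after adjustment in limma), and by −0.98 (0.0148) in the smaller fit. Krt7 and Krt14 overlapped and passed in none of these fits. Epcam stood at 14.7, 13.8 and 12.7 RPKM in shCTL, against 35.9, 33.3 and 28.3 RPKM in shHSF1 (log2 difference 1.21, SE 0.14, limma adjusted p = 0.093; 0.0494 with the replicate block and 0.00854 without both replicate 1 libraries), while Krt8 was at 738, 760 and 632 RPKM against 314, 502 and 451 (−0.77, SE 0.21, limma adjusted p = 0.247; 0.0466 without both replicate 1 libraries). Esrp1, an epithelial splicing regulator, was at 0.212 to 0.327 RPKM against 1.19 to 1.31 (1.2, SE 0.20, limma adjusted p = 0.116; 0.0196 without both replicate 1 libraries), and Krt18 at 963 to 1611 against 738 to 910 RPKM (−0.50, SE 0.23, limma adjusted p = 0.482). The summed level of the 8 epithelial markers was 2012 to 2614 RPKM in shCTL and 1575 to 1833 RPKM in shHSF1. Epcam was taken as a denominator after its values were seen. Its ratio of means was 2.37, beside 2.30 for Lgals9 and 2.40 for Pvrl2, so similar means of the ratios below follow from that choice. The ratio of Lgals9 to Epcam was 1.64, 1.429 and 1.503 in shCTL and 1.054, 1.685 and 1.787 in shHSF1 (means 1.52 ± 0.107 and 1.51 ± 0.397). That of Pvrl2 to Epcam was 0.512, 0.586 and 0.625 against 0.364, 0.668 and 0.748 (means 0.575 ± 0.0574 and 0.593 ± 0.202, SD, n = 3 each). Both ratios were lower with the HSF1 hairpin in replicate 1 and higher in replicates 2 and 3. Ratios to Krt8 and Krt18, which were lower in shHSF1, and to the other epithelial markers were not taken. The part of the epithelial markers in the ligand differences was not tested.

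Across the 6 libraries, which share one cell line and fall into the replicate 1 and the other libraries, the log2 levels of Lgals9 and Pvrl2 had a Pearson correlation of 0.971, and those of Cd47 and Tnfrsf14 one of 0.998. These are descriptions over 6 points. Among all genes tested, the patterns nearest to Lgals9 were those of P4hb (0.999), Cnp, Lrp11, Palm and Canx (0.997), with 350 genes above 0.9. The nearest to Cd274 were Wapal and Adck5 (0.996 each), Osgep, Rabep1 and Jarid2 (0.992), with 572 genes above 0.9.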

How the data were processed

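Polyadenylated RNA libraries (KAPA mRNA HyperPrep kit, per the labels' protocols) of 4T1 cells were processed with STAR and featureCounts on mm10 (per the submitters' processing notes); tool versions, gene annotation, strandedness and how shared reads were handled are not given there. The authors deposited RPKM for 24421 genes with lengths and exon positions, per the file headers. RPKM times length was a whole multiple of 1 read in 100% of values (tolerance 0.001), which gave read totals; floors (3 reads) cover counting error only. No column belonged to an unlisted sample (0). The 27 date-like gene names kept row names of their own.

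The 11386 genes that reached 0.5 RPKM in 3 or more libraries were tested on log2(RPKM + 0.5) with limma 3.58.1 (R 4.3.3; variance trend, Benjamini-Hochberg, threshold 0.05), shHSF1 minus shCTL; the code was tested on simulated data. Labels do not say whether replicates were separate cultures, so p-values reflect only how these libraries vary, possibly for technical reasons. The ligand genes and lists were chosen with earlier results of these data known. Named were the 10 ligands, Hsf1, up to 3 genes per list by smallest p, and the 5 genes nearest in pattern to Lgals9 and Cd274; other genes, and the ratios, were named after their values were seen. Vsir and Cop1 were matched to older symbols; H60a and Pvrig had no match.

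Across genes, libraries with the same number deviated from their group means together, with correlations of 0.582, 0.181 and 0.679, all above 0.1, so by that rule the numbers, which come from the sample titles, pair the samples. shCTL replicate 2 correlated more with shHSF1 replicate 3 (0.509), so this shows mainly that replicate 1 differs in both groups. Alternatives were other pseudocounts, filters and scalings, the replicate block, libraries left out, and voom on whole reads. Sequences are from the RefSeq promoter table, overlaps from GENCODE M21. Python 3.11.15, pandas 2.3.3 and matplotlib 3.10.9 were also used.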

Additional observations from a re-analysis of the deposited data

How the results depend on the processing

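Of 11386 genes tested 3 passed, and the count was 18 with no filter, 20 with the replicate block (16 higher, 4 lower), 10 with voom on whole reads, 1262 without both replicate 1 libraries, and 0 to 8 with 1 library left out. The lowest count, 0, came without shCTL replicate 2 and without shHSF1 replicate 2 (limma, 771 and 778 genes at an unadjusted p under 0.05). The number of ligands passing was 0 under 14 of the 15 alternatives (limma and voom, 2 to 4 with an unadjusted p under 0.05), among them the replicate block, and 2 without both replicate 1 libraries (Lgals9 and Pvrl2, 5 with an unadjusted p under 0.05). Of all genes tested, 771 to 2705 had an unadjusted p under 0.05 under those 14 alternatives, and 3681 without both replicate 1 libraries. The replicate block changed no call of a ligand. Its limma adjusted p was 0.0851 for Pvrl2, 0.091 for Lgals9, 0.122 for Cd274 and 0.141 for Cd276. For Cd47, Tnfrsf14 and Pvr it was 0.393, 0.572 and 0.660. Over all 15 alternatives the log2 difference was above 0 for Lgals9 (1.05 to 1.44, adjusted p 0.00416 to 0.618) and Pvrl2 (1.04 to 1.41, adjusted p 0.00436 to 0.645), and over 14 for Cd274 (0.50 to 1.01, adjusted p 0.0561 to 0.842), which a filter on a mean of at least 1 RPKM removed. With 1 library left out, 3 differences that had not passed changed sign: Cd47 ran from −0.0075 to 0.35, Pvr from −0.45 to 0.024 and Tnfrsf14 from −0.037 to 0.36; the cause was not tested. The planned edgeR fit was not run, because the deposited unit is RPKM. Depth limits Cd274, Tnfrsf14, Vtcn1, Pdcd1lg2 and Cd80, with 161 reads or fewer per library.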
